A study of Drosophila melanogaster with 12 samples.

Results

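Glutathione S-transferases (Gst) and UDP-glycosyltransferases (Ugt) were taken as every gene whose probe set carried a single platform symbol starting with Gst or Ugt. That gave 67 genes, 34 Gst and 33 Ugt, of 10843 genes with a singly named probe set. They were represented by 71 of 13966 non-control probe sets, the short oligonucleotide sets that measure a transcript on an Affymetrix array. Of several probe sets of 1 gene, the one with the highest mean Signal stood for it.

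Head RNA of adult Drosophila melanogaster was measured on 12 arrays, 2 for each sex of 3 lines. Canton S B is wild type. BG02514 and BG02257 come from a collection of gene-trap lines with a P{GT1} transposon in each line. The sources used here do not give its site in either line, and the series was titled for the Tre1/Gr5a region. Flies of all groups were 5 to 7 days old, raised at 25 °C with 12 h of light at 70% humidity, and a sample pooled the heads of 100 flies. The labels number both male arrays of BG02257 as replicate 1, and they are called 1a and 1b here. They were counted as separate samples, although they may be repeat arrays of 1 sample. Where arrays of a group do not come from separate rearings, the p-values measure only the spread between these arrays.

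Glutathione S-transferases are soluble enzymes that join glutathione to electrophilic compounds, among them insecticides, plant toxins and products of lipid oxidation. Insects have large delta (GstD) and epsilon (GstE) classes beside the omega (GstO), sigma (GstS), theta (GstT) and zeta (GstZ) classes. UDP-glycosyltransferases sit in the membrane of the endoplasmic reticulum and, in insects, mostly move glucose from UDP-glucose to small lipophilic compounds. Both reactions make such compounds more soluble, and several members of each family are known from the antenna, where odorants are cleared.

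The deposited value is Signal, a linear intensity that shows relative amounts of 1 transcript between arrays and cannot be compared between genes. Median Signal per array lay between 183.0 and 206.5, and replicate arrays correlated at 0.910 to 0.955 (Spearman's rho, over tested probe sets). The number of arrays, 2 in a group, limits the precision. A test was made where the mean Signal reached 128.3, which 28 of 34 Gst genes did (82.4%), 13 of 33 Ugt genes (39.4%) and 6778 of all 10843 named genes (62.5%). GstD10, at a mean of 136.8, lay just above this limit, and GstE7, at 104.3, just below it. The limit left 8380 probe sets. A difference is called here where limma's moderated test gave a Benjamini-Hochberg adjusted p under 0.05 over all 8380. In RNA of whole heads, fewer cells of a type and less RNA per cell cannot be told apart. As a check of the tissue, the summed Signal of 4 photoreceptor genes lay between 115805 and 151184 over the arrays. The female yolk protein gene Yp1 read 6747 on BG02257 male array 1a, against 171.7 to 496.1 on the other 5 male arrays, so results were also computed without it.

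Females and males were compared over the 3 lines with equal weight. Of the 28 tested Gst genes, 2 were called, GstE9 and GstS1, both with less transcript in female heads. Of the 13 tested Ugt genes, 1 was called, Ugt49C1, with more transcript in female heads. Over all 8380 probe sets 238 were called, which is 2.84%. Of these, 164 were higher in females (1.96%) and 74 lower (0.883%), a split that became 98 and 78 after quantile normalization. With 2 and 1 genes called, the shares of the families rest on too few genes to be read against those percentages.

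GstE9 is an epsilon-class enzyme whose gene closes a run of GstE genes on chromosome arm 2R (probe set 142480_at). Its Signal in Canton S B was 1481 and 2180 in females and 5927 and 2607 in males. In BG02514 it was 2059 and 1892 in females and 3323 and 4632 in males. In BG02257 it was 1888 and 1623 in females and 4092 and 3864 in males. Every male array was above every female array, although the Canton S B males stood far apart from each other. Females averaged 1854 ± 262 and males 4074 ± 1141 (SD, n = 6 each). By the fitted log2 difference females were 2.15-fold lower. The log2 difference, female minus male, was −1.10 ± 0.19 (SE), with a limma adjusted p of 0.0111. By line it was −1.13 (Canton S B), −0.99 (BG02514) and −1.18 (BG02257). The call held in all 12 fits that left out 1 array, but an analysis of variance of each probe set on its own, which shares no information on spread between probe sets, gave an adjusted p of 0.110.

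GstS1 is the only sigma-class enzyme of the fly and is known for conjugating a reactive aldehyde of lipid peroxidation (probe set 153990_at, arm 2R). Its Signal in Canton S B was 1358 and 1639 in females and 2807 and 2508 in males. In BG02514 it was 2074 and 1904 in females and 1984 and 3127 in males. In BG02257 it was 1576 and 1218 in females and 2246 and 2317 in males. The sexes were apart in Canton S B and BG02257 and overlapped in BG02514, where 1 male array lay between the females. Females averaged 1628 ± 322 and males 2498 ± 413 (SD, n = 6 each). By the fitted log2 difference females were 1.54-fold lower. Female minus male came to −0.63 ± 0.13 (SE, log2), with a limma adjusted p of 0.0282. By line it was −0.83 (Canton S B), −0.33 (BG02514) and −0.72 (BG02257). The call was lost in 7 of 12 fits that left out 1 array (adjusted p of 0.0503 to 0.0969): Canton S B female 1 or male 1, BG02514 female 1, female 2 or male 2, and BG02257 female 2 or male 1a.

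Ugt49C1 lies beside Ugt49B1 on arm 2R (probe set 147609_at). Its Signal in Canton S B was 1282 and 1381 in females and 853.8 and 1004 in males. In BG02514 it was 1222 and 1419 in females and 887.9 and 973.7 in males. In BG02257 it was 1110 and 1478 in females and 858.7 and 916.3 in males. Every female array was above every male array. Females averaged 1315 ± 137 and males 916 ± 61.7 (SD, n = 6 each). By the fitted log2 difference females were 1.43-fold higher. Female minus male came to 0.52 ± 0.11 (SE, log2), with a limma adjusted p of 0.0333, and line by line to 0.52 (Canton S B), 0.50 (BG02514) and 0.53 (BG02257). The call was lost in 9 of 12 fits that left out 1 array (adjusted p of 0.0563 to 0.121). It held only without Canton S B male 2, BG02257 female 1 or BG02257 male 1b. Its neighbour Ugt49B1 gave 0.29 ± 0.17 (SE, log2), with a limma adjusted p of 0.460.

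**Figure D1:**
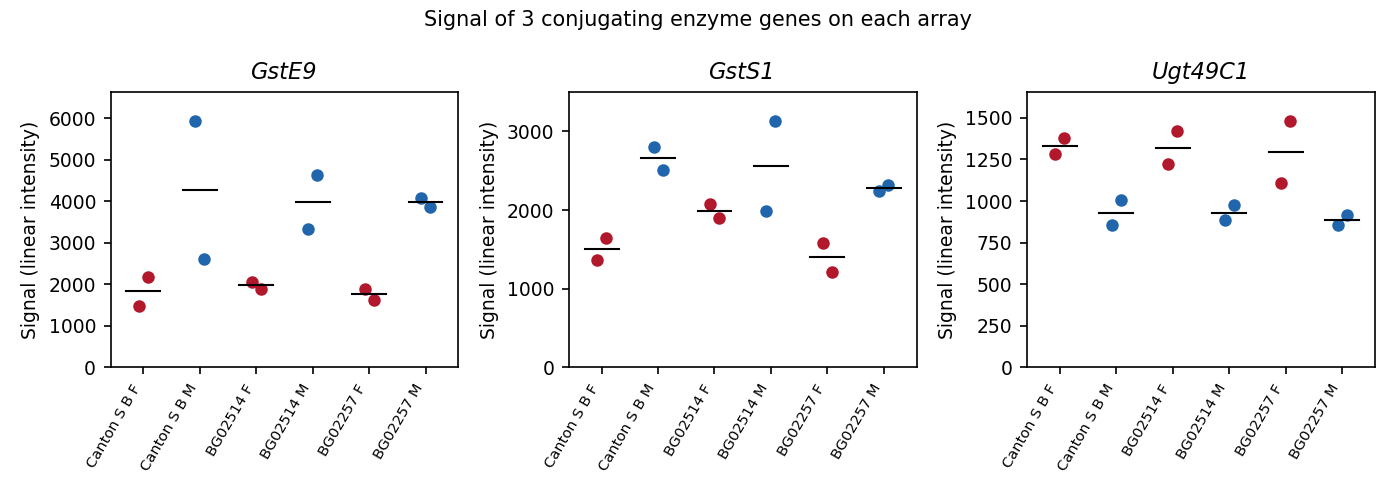
Signal (linear intensity) of GstE9, GstS1 and Ugt49C1 on each of 12 arrays, by line and sex, with females (F) in red, males (M) in blue and a bar at the mean of 2 arrays. The sexes do not overlap for GstE9 and Ugt49C1, and overlap for GstS1 in BG02514 (2074 in a female, 1984 in a male).

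Markers of other cell types were compared between the sexes in the same way. Of the head fat body genes known to respond to sex, 7 of 7 were called (4 up and 3 down in females). Their summed Signal, in which bright genes such as Yp1 weigh heavily, was 214855 to 261686 in females and 10106 to 27177 in males. All 6 tested glial markers had values below 0 (median −0.35), with a summed Signal of 11791 to 15609 in females and 13413 to 19894 in males. All 7 tested hemocyte markers were above 0 (median 0.51), with sums of 6125 to 17311 and 4318 to 8640. The 5 tested gut markers were all above 0 (median 1.05). Sums over all 9 gut markers with a probe set, tested or not, were 1253 to 5053 in females and 1107 to 3171 in males. Of 4 tested muscle markers 3 were above 0 (median 0.27), with sums of 30259 to 39530 and 20550 to 38820. Limma called none of the glial, hemocyte, gut or muscle markers, of which 3, 3, 1 and 3 had an unadjusted p under 0.05, and both analyses of variance called 0. The lowest Signal on any array was 205 for glia, 140 for hemocyte, 194 for muscle and 1.6 for gut markers. A Signal above 0 does not by itself show that a transcript was present. Tested markers above and below 0 were 2 and 4 for fat body, 4 and 3 for antennal support cells and 2 and 2 for photoreceptors. The counts were 2 and 2 for neurons and 1 and 1 for Malpighian tubule. All 3 tested testis and accessory gland markers were below 0 and the 1 ovary and egg marker above 0. Limma called none in these lists. The part of these cell types in the differences of GstE9, GstS1 and Ugt49C1 was not tested.

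Other members gave smaller or less certain sex differences. An unadjusted p under 0.05 was reached by 9 of 28 Gst genes (32.1%) and 1 of 13 Ugt genes (7.69%), against 15.0% of all probe sets. GstD9, a delta-class enzyme, gave −0.37 ± 0.10 (limma adjusted p = 0.0996). GstT3, of the theta class and X-linked, gave −0.31 ± 0.09 (limma adjusted p = 0.125), and GstZ2, of the zeta class that isomerizes maleylacetoacetate in tyrosine breakdown, gave −0.52 ± 0.16 (limma adjusted p = 0.135). On the other side, GstT4, also X-linked, gave 0.34 ± 0.12 (limma adjusted p = 0.192) and GstD11 gave 0.46 ± 0.19 (limma adjusted p = 0.276). The remaining 2 Gst genes under 0.05 were GstE2 (−0.52 ± 0.20) and GstZ1 (−1.03 ± 0.44), named here after their values were seen. GstZ1 varied widely between replicate arrays, with a log2 SD of 1.0.

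The arrays of GstT3 show how small a difference separated the sexes. Its Signal was 710.7 and 735.7 in females and 911.5 and 865.3 in males of Canton S B. It was 735.1 and 747.9 in females and 825.2 and 817.4 in males of BG02514, and 611.7 and 638.8 in females and 845.6 and 921.2 in males of BG02257. No female array of GstT3 reached any male array, and its replicate SD of 0.048 (log2) was the smallest of the tested Gst genes. GstT3 was called in the analyses of variance of log2 Signal (adjusted p = 0.0138) and of linear Signal (adjusted p = 0.0171), where GstE9 and GstS1 were not. Arrays of the sexes did not overlap within any line for 3 Gst genes, all lower in females (GstE9, GstD9 and GstT3), and for 1 Ugt gene, higher in females (Ugt49C1). The share of all probe sets without overlap was 6.13%.

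Over the whole Gst family the median log2 sex difference was −0.11, with 18 of 28 genes below 0 and a range of −1.10 to 0.46. The Ugt median was −0.06, with 9 of 13 genes below 0 and a range of −0.41 to 0.52. Leaving out 1 array moved the Gst median between −0.15 and −0.06, and the Ugt median between −0.20 and 0.03, with a sign change without Canton S B female 1. All tested probe sets had a median of 0.00, with 49.8% below 0. The Gst median within each line was 0.07 for Canton S B (12 of 28 below 0), −0.09 for BG02514 (21 of 28) and −0.25 for BG02257 (22 of 28). The Ugt medians were −0.09, 0.01 and −0.08 in the same order. Differences between lines in these medians were not tested.

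**Figure D2:**
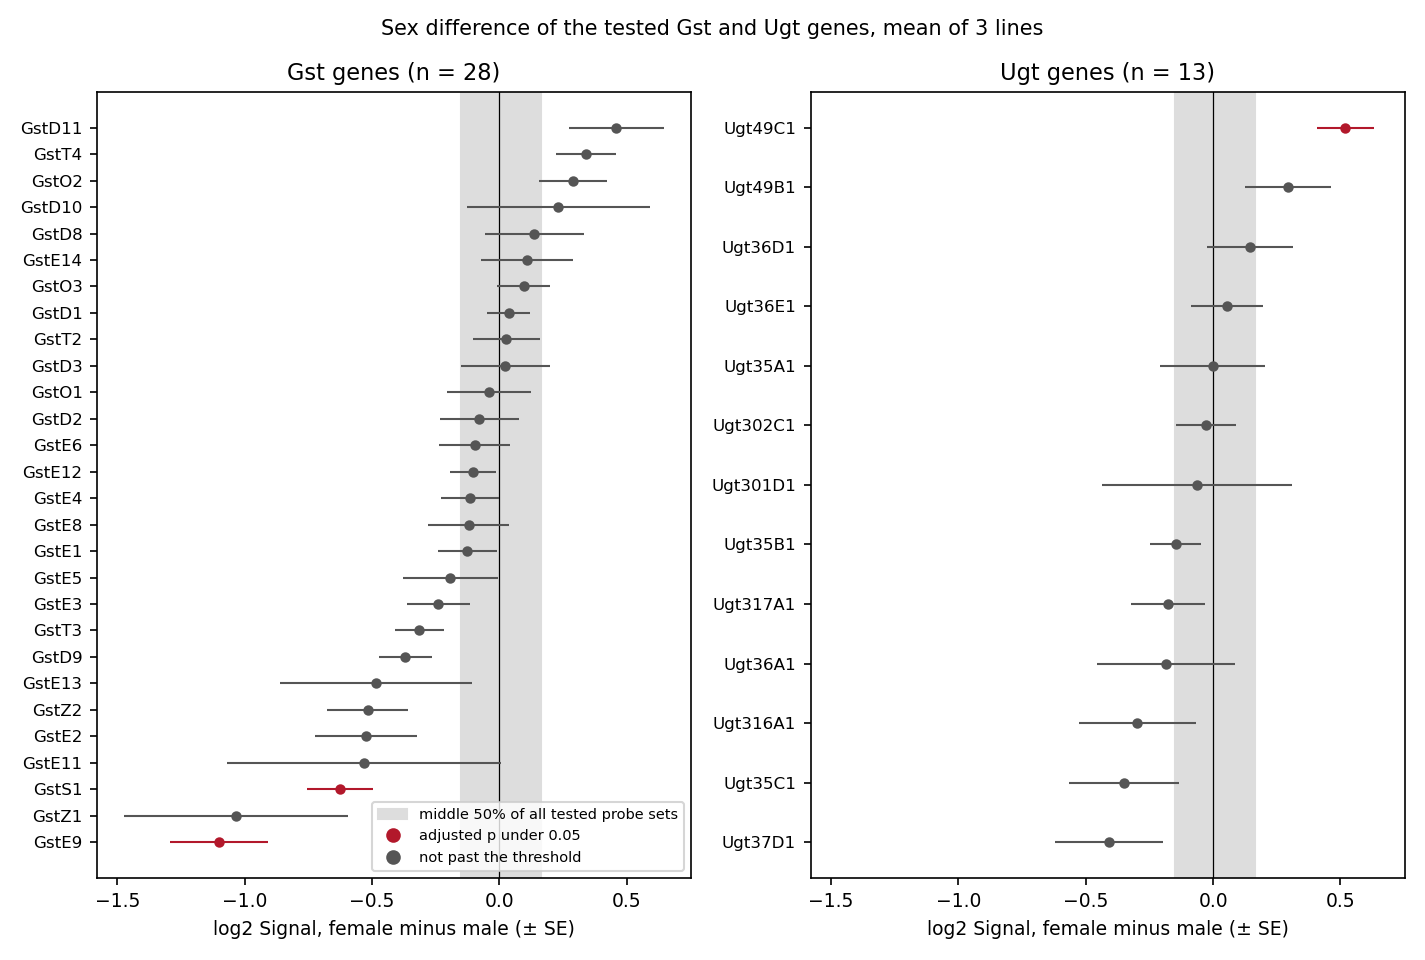
Log2 Signal, female minus male, averaged over 3 lines, for 28 Gst and 13 Ugt genes, with points at the estimate, bars for ± SE and a grey band for the middle 50% of all tested probe sets. GstE9 (−1.10), GstS1 (−0.63) and Ugt49C1 (0.52), in red, have an adjusted p under 0.05.

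All 11 delta-class genes and 10 of the 14 epsilon-class genes lie in runs of neighbouring genes. The run GstE10 to GstE9 on 2R holds 10 genes, of which 8 were tested, and all 8 had a sex difference below 0 (median −0.16, from −1.10 to −0.10). Line by line, 6 of 8 (Canton S B), 8 of 8 (BG02514) and 8 of 8 (BG02257) were below 0, and GstE9 was the gene of the run that was called. The other GstE genes, elsewhere on 2R, gave −0.53 (GstE11), −0.10 (GstE12), −0.49 (GstE13) and 0.11 (GstE14). The run GstD10 to GstD11 on 3R holds 11 genes, of which 7 were tested, with 2 below 0 and 5 above (median 0.04). Its member GstD1, known for breaking down DDT, gave 0.04 ± 0.08. Members of a run resemble each other in sequence, and how far their probe sets bind each other's transcripts was not tested. The 3 omega-class genes gave a median of 0.09. For GstO2, the standing probe set and a second tested one disagreed, at 0.29 ± 0.13 and −0.30 ± 0.16.

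**Figure D3:**
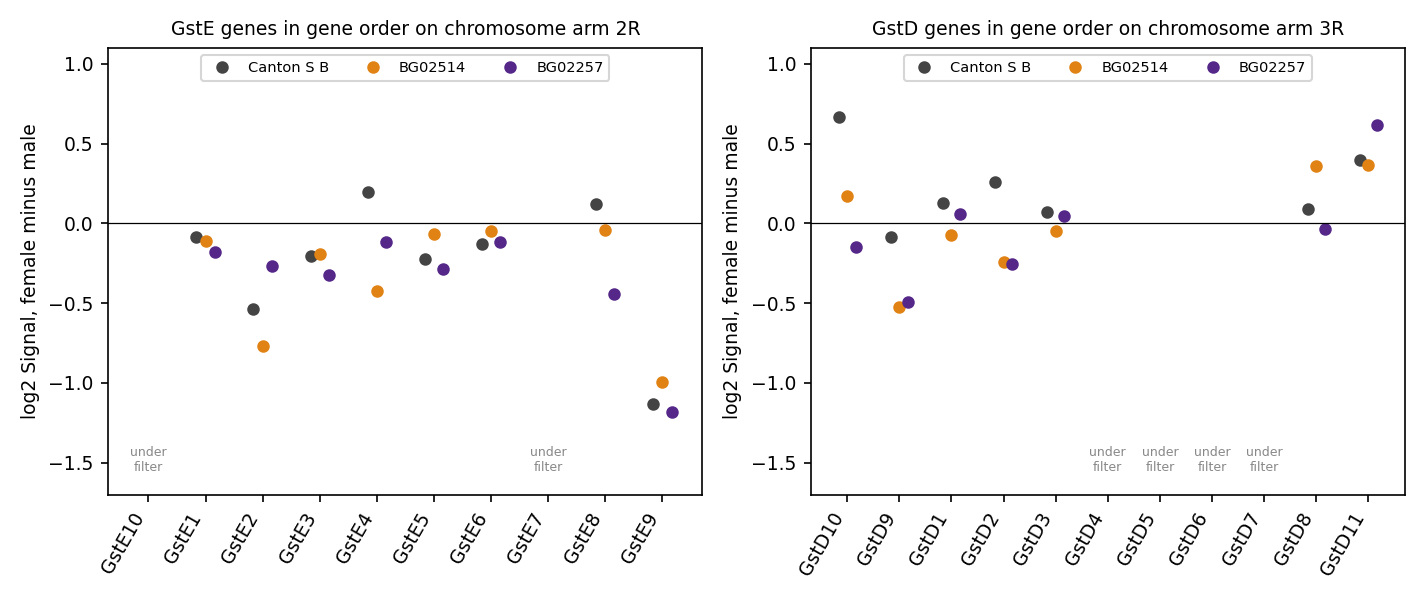
Log2 Signal, female minus male, in each of 3 lines for the GstE run on 2R and the GstD run on 3R, in gene order, with points for Canton S B (grey), BG02514 (orange) and BG02257 (purple). GstE9 lies at −1.13, −0.99 and −1.18, and genes under the Signal limit are marked without a value.

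Whether the sex difference depended on the line was tested as an interaction. Limma called 0 of 28 Gst and 0 of 13 Ugt genes, against 0.0% of all probe sets. An unadjusted p under 0.05 was reached by 0 Gst and 0 Ugt genes and by 2.8% of all probe sets, and both analyses of variance called 0 members. The largest F in the Gst family was that of GstE4 (F = 2.49, unadjusted p = 0.128 in limma), with sex differences of 0.20, −0.42 and −0.12 in Canton S B, BG02514 and BG02257. In the Ugt family it was Ugt36D1 (F = 2.33, unadjusted p = 0.142 in limma), with 0.41, 0.39 and −0.37.

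The lines were compared over both sexes with equal weight. Limma called 0 of 28 Gst and 0 of 13 Ugt genes in BG02514 against Canton S B, where 0.179% of all probe sets were called. It called 0 and 0 in BG02257 against Canton S B, where 0.0955% were called, and 0 and 0 in BG02514 against BG02257, where 0.334% were called. Both analyses of variance also called 0 members in each pair. An unadjusted p under 0.05 was reached by 3 Gst genes and 1 Ugt gene in BG02514 against Canton S B (8.02% of all probe sets). It was reached by 2 Gst and 0 Ugt genes in BG02257 against Canton S B (4.01%), and by 3 Gst and 0 Ugt genes in BG02514 against BG02257 (9.99%). The pairs share lines, so their values are not independent of each other.

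GstD9 had a Signal of 1641, 1742, 1841 and 1750 in Canton S B (females 1 and 2, then males 1 and 2). It was 893.5, 1154, 1411 and 1517 in BG02514, and 1429, 1401, 2200 and 1808 in BG02257 (males 1a and 1b last). Each sex of BG02514 lay below the same sex of both other lines for GstD9, with line means of 1743 ± 81.9, 1244 ± 279 and 1710 ± 376 (SD, n = 4). The log2 difference was −0.52 ± 0.13 for BG02514 minus Canton S B (limma adjusted p = 0.194) and −0.46 ± 0.13 for BG02514 minus BG02257 (limma adjusted p = 0.239).

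GstD11 had a Signal of 436.3, 403.7, 396.6 and 257.0 in Canton S B in the same order. It was 315.8, 159.9, 183.4 and 166.2 in BG02514, and 308.6, 291.6, 197.0 and 194.1 in BG02257. Canton S B was above both other lines in each sex. The log2 difference from Canton S B was −0.89 ± 0.23 in BG02514 (limma adjusted p = 0.218) and −0.60 ± 0.23 in BG02257 (limma adjusted p = 0.999).

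GstZ2 had a Signal of 430.7, 336.7, 569.9 and 456.3 in Canton S B. In BG02514 it was 276.8, 357.5, 449.2 and 497.5, and in BG02257 it was 480.9, 690.9, 675.8 and 1045. BG02257 was above both other lines in each sex, with a spread between its arrays (723 ± 235, SD, n = 4) wider than in Canton S B (448 ± 95.9) or BG02514 (395 ± 98.0). The log2 difference was 0.66 ± 0.195 for BG02257 minus Canton S B (limma adjusted p = 0.626) and −0.85 ± 0.195 for BG02514 minus BG02257 (limma adjusted p = 0.151).

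GstE1, of the epsilon class, had line means of 780 ± 107 (Canton S B), 618 ± 28.0 (BG02514) and 820 ± 104 (BG02257; SD, n = 4). Its log2 difference was −0.33 ± 0.14 for BG02514 minus Canton S B (limma adjusted p = 0.596) and −0.40 ± 0.14 for BG02514 minus BG02257 (limma adjusted p = 0.372). Ugt302C1 had line means of 922 ± 125, 709 ± 82.8 and 796 ± 73.1, and gave −0.38 ± 0.14 for BG02514 minus Canton S B (limma adjusted p = 0.499). None of these line differences passed the threshold.

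**Figure D4:**
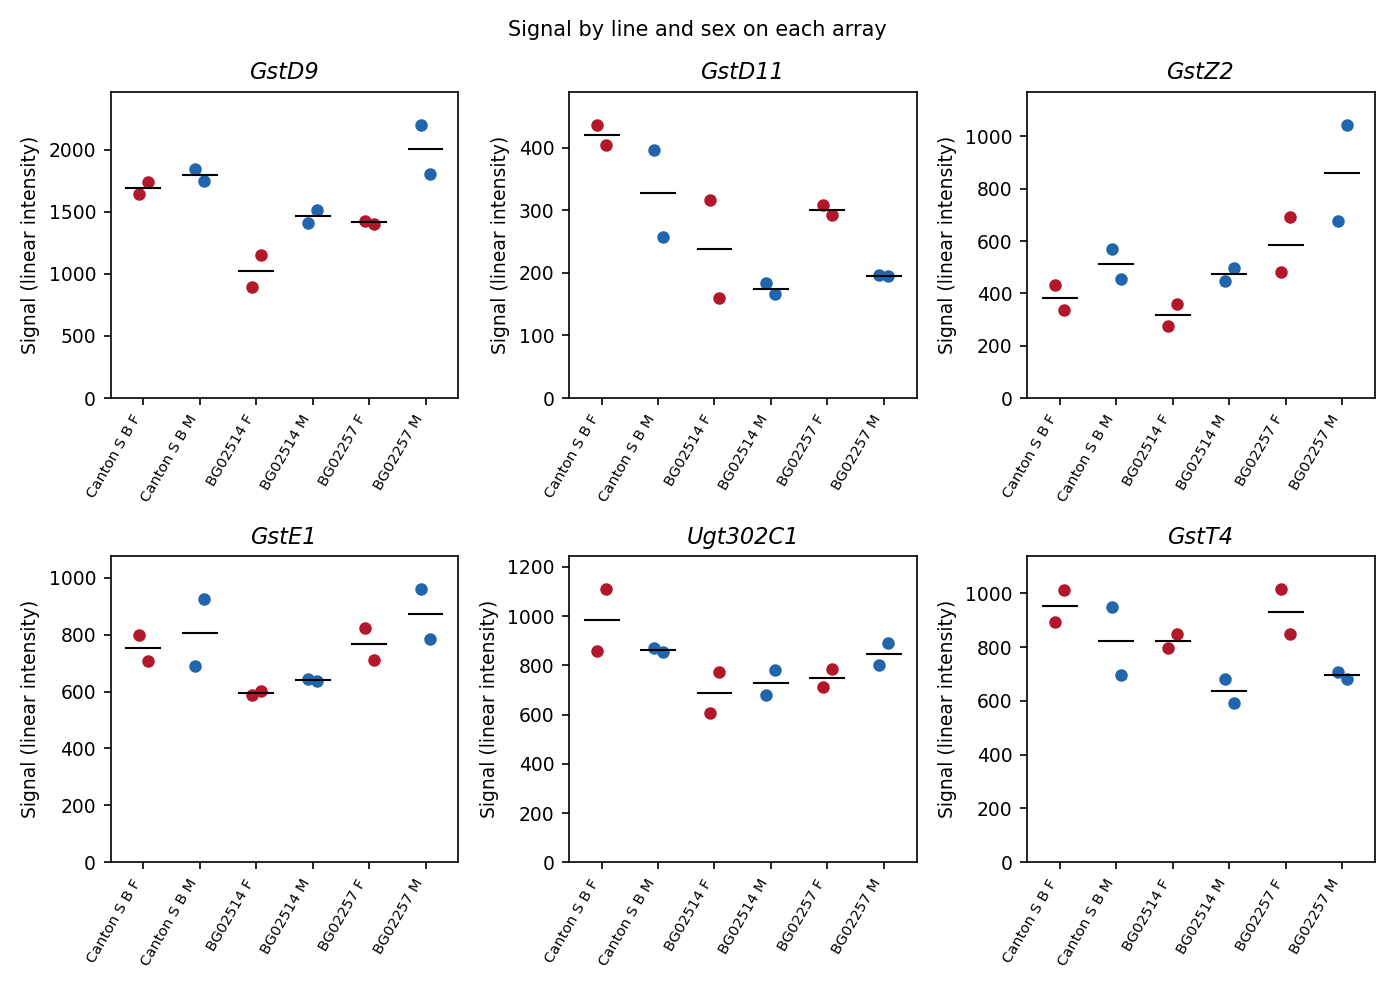
Signal (linear intensity) of GstD9, GstD11, GstZ2, GstE1, Ugt302C1 and GstT4 on each of 12 arrays, by line and sex, with females (F) in red, males (M) in blue and a bar at the mean of 2 arrays. GstD11 lies between 257.0 and 436.3 in Canton S B and between 159.9 and 315.8 in BG02514, without overlap within a sex.

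Arrays of BG02514 and Canton S B did not overlap in either sex for 5 Gst genes, all lower in BG02514 (GstE1, GstO2, GstD9, GstD11 and GstT4), and for 1 Ugt gene, lower in BG02514 (Ugt302C1), while 9.74% of all probe sets did not overlap. For BG02257 against Canton S B they were GstZ2, higher, and GstD11, lower, against 4.73%. For BG02514 against BG02257 they were GstT2, higher, and GstE1, GstZ2 and GstD9, lower, against 11.2%. The second tested probe set of GstO2 did overlap in females, at 345 and 500 in BG02514 against 311 and 495 in Canton S B. The median log2 difference of BG02514 from Canton S B was −0.13 over Gst genes (20 of 28 below 0), 0.01 over Ugt genes (6 of 13) and −0.01 over all probe sets (52.6% below 0). BG02257 minus Canton S B gave −0.02 (15 of 28 below 0) and 0.03 (6 of 13). BG02514 minus BG02257 gave −0.15 (21 of 28) and −0.09 (8 of 13), and the Gst value became −0.05 with the limit at the 60th percentile. When 1 array was left out, the Gst medians of BG02514 minus Canton S B (−0.20 to −0.08) and BG02514 minus BG02257 (−0.22 to −0.09) stayed below 0. The Gst median of BG02257 minus Canton S B turned to 0.01 without BG02257 female 2 and to 0.02 without male 1b. Each Ugt median changed sign. BG02514 minus Canton S B was lowest without Canton S B female 1 (−0.10) and was also below 0 without Canton S B male 2, BG02514 female 2 or BG02514 male 2. BG02257 minus Canton S B was lowest without Canton S B male 2 (−0.13) and was also below 0 without Canton S B female 1 or BG02257 male 1a. BG02514 minus BG02257 was highest without BG02514 female 1 (0.04) and was also above 0 without BG02514 male 1 or BG02257 female 2. In the GstD run 7 of 7 tested genes were below 0 in BG02514 minus BG02257 (median −0.29), and in the GstE run 7 of 8 (median −0.22). The share of all probe sets below 0 in that pair was 52.2%. In BG02514 minus Canton S B the counts were 6 of 7 and 7 of 8. In BG02257 minus Canton S B they were 3 of 7 and 3 of 8.

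Markers of other cell types were compared between the lines in the same way, and limma called 1, the photoreceptor gene inaD. It gave −0.85 ± 0.13 in BG02514 minus Canton S B (limma adjusted p = 0.0278), while trp, Arr1 and Arr2 gave 0.08, −0.10 and −0.06. In BG02257 minus Canton S B, inaD gave −0.41 ± 0.13 and was not called (limma adjusted p = 0.693). Of the 4 photoreceptor markers, 2 had an unadjusted p under 0.05 in limma there, and 2 were above and 2 below 0. The call of inaD was lost in 6 of 12 fits that left out 1 array (Canton S B female 1, female 2 or male 2, and BG02514 female 1, female 2 or male 1), with adjusted p of 0.0571 to 0.178. Neither analysis of variance called it. The summed photoreceptor Signal was 118739 to 151184 (Canton S B), 115805 to 129499 (BG02514) and 120987 to 134828 (BG02257). All 5 tested gut markers were above 0 in BG02514 minus Canton S B (median 0.96) and in BG02257 minus Canton S B (median 0.45). Summed Signal over all 9 gut markers with a probe set was 1253 to 5013 (Canton S B), 2575 to 5053 (BG02514) and 1107 to 3492 (BG02257). Of 7 tested markers of antennal support cells, 6 were below 0 in BG02514 minus Canton S B (median −0.23). In BG02257 minus Canton S B 2 were (median 0.09). Sums were 49150 to 60915, 41269 to 47072 and 53683 to 67113 in the same order of lines. In BG02514 minus BG02257 all 7 antennal markers were below 0 (median −0.35), and 3 of them had an unadjusted p under 0.05. Limma called none of the gut and antennal markers in any pair of lines, and the analyses of variance called 0. In BG02514 against Canton S B, 1 gut and 2 antennal markers had an unadjusted p under 0.05. The lowest Signal on any array was 1.6 in the gut list and 381 in the antennal list. Other lists also leaned one way, picked here after their values were seen. Of 6 tested fat body markers 5 were above 0 in BG02514 minus Canton S B (median 0.26). All 4 tested neuron markers were below 0 in BG02257 minus Canton S B (median −0.21) and above 0 in BG02514 minus BG02257 (median 0.27). Of 7 sex-responsive head fat body markers 6 were below 0 in BG02514 minus BG02257 (median −0.65). Limma called none of these. The part of these cell types in the Gst and Ugt values was not tested.

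**Figure D5:**
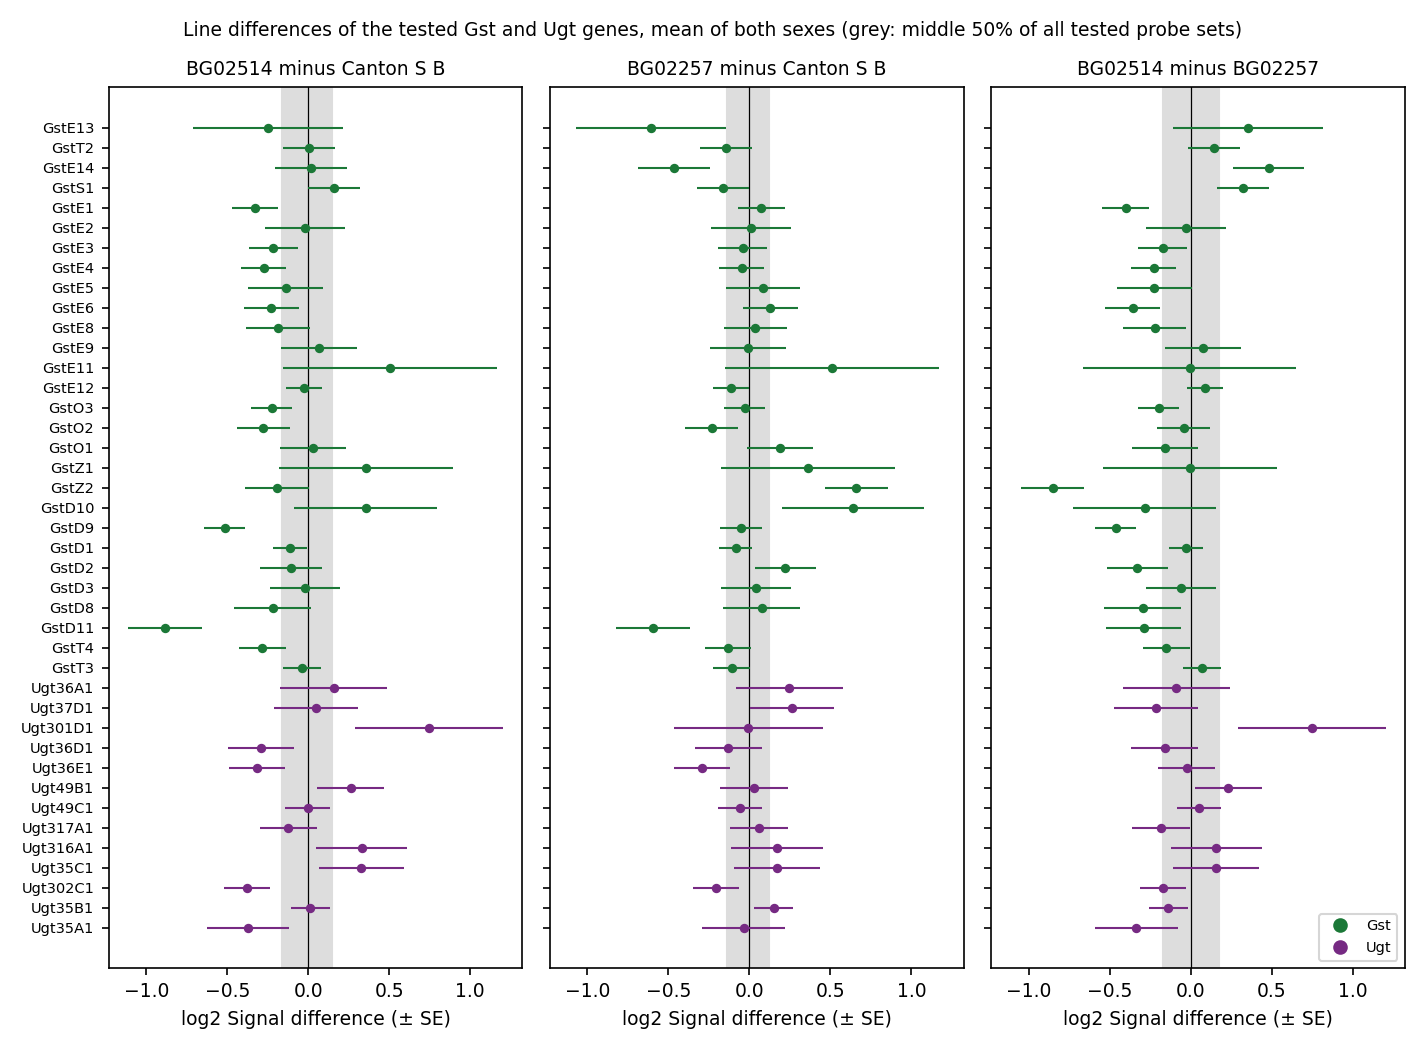
Log2 Signal differences between lines, averaged over both sexes, for 28 Gst (green) and 13 Ugt (purple) genes, with points at the estimate, bars for ± SE and a grey band for the middle 50% of all tested probe sets. GstD11 (−0.89) and GstD9 (−0.52) lie lowest in BG02514 minus Canton S B, and none of the values passed the threshold.

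A further omega-class enzyme, se, makes a precursor of the red drosopterin eye pigments. It is encoded between GstO3 and GstO2 on 3L and carries no Gst symbol. Its log2 difference from Canton S B was −1.43 ± 0.16 in BG02514 (limma adjusted p = 0.00356) and −1.18 ± 0.16 in BG02257 (limma adjusted p = 0.0251). The members around it gave −0.23 ± 0.13 (GstO3), −0.28 ± 0.16 (GstO2) and 0.03 ± 0.20 (GstO1) in BG02514, and −0.03, −0.23 and 0.19 in BG02257. The call of se in BG02514 held in 12 of 12 fits that left out 1 array. In BG02257 it held in 3 of 12, without Canton S B female 2 or male 1 or without BG02257 male 1b, and the other 9 gave adjusted p up to 0.135. It was also lost in BG02257 with a replicate block (0.0522), with the BG02257 males averaged as 1 sample (0.0799), without the variance trend (0.0924) and with only the 8 arrays compared (0.182). Neither analysis of variance called se, with adjusted p of 0.117 to 0.545.

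Genes around the conjugation reactions gave no call other than se. Of 15 genes of glutathione supply and recycling 8 were tested. Their median sex difference was −0.08 (3 above and 5 below 0). In BG02514 minus Canton S B all 8 were below 0, with a median of −0.12, and in BG02257 minus Canton S B 7 of 8 were, with a median of −0.08, where 52.6% and 52.1% of all probe sets were below 0. The lowest in BG02514 was Ggt-1, a gamma-glutamyl transpeptidase that breaks down glutathione, at −0.67 (limma adjusted p = 0.324). Of 6 genes of UDP-sugar supply 5 were tested, with a median sex difference of 0.01, and the hexokinase gene Hex-C gave 0.98 in BG02514 minus Canton S B (limma adjusted p = 0.406). A list of regulators of detoxification held cnc, Keap1, maf-S, Hr96, ss, tgo, Met and gce. Its 7 tested genes had a median sex difference of 0.12, the 4 export pumps 0.08 and the 6 enzymes against oxidative stress −0.05. Among these 5 lists, limma and both analyses of variance called 0 genes by sex, where 2 regulator genes had an unadjusted p under 0.05. They also called 0 in BG02514 against Canton S B, where 2 glutathione supply, 1 UDP-sugar and 1 oxidative stress gene had one. Ggt-1 and Hex-C are named here after their values were seen.

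The 26 members below the Signal limit were fitted without it, over all 13966 probe sets. Their mean Signal was 19.1 to 104.3 in the 6 Gst genes (GstE10, GstE7 and GstD4 to GstD7) and 4.76 to 87.7 in the 20 Ugt genes. Limma called none in any comparison, where it called 1.04% of all 13966 by sex, 0.1% in BG02514 against Canton S B, 0.0573% in BG02257 against Canton S B, 0.158% in BG02514 against BG02257 and 0.0% in the interaction. Among the Gst genes, 1 had an unadjusted p under 0.05 by sex, GstE7 at −1.28 ± 0.40 (limma adjusted p = 0.193), and none did between lines or in the interaction. Among the Ugt genes the numbers with an unadjusted p under 0.05 were 0 of 20 by sex (12.4% of all 13966 probe sets), 2 in BG02514 against Canton S B (6.92%), 4 in BG02257 against Canton S B (4.27%), 2 in BG02514 against BG02257 (8.13%) and 1 in the interaction (3.43%). Among the tested members, replicate arrays differed with a median log2 SD of 0.25 in the Gst family and 0.33 in the Ugt family, against 0.28 over all probe sets. The widest were GstE11 at 1.24 and Ugt301D1 at 0.85.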

How the data were processed

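The authors deposited linear intensities, the Signal of Affymetrix Microarray Suite 5.0 per the labels' protocols. GCOS is also named in the submitters' processing notes. Every deposited array had the same trimmed mean (500.1, 2% off each tail), so arrays had been scaled. Global scaling can shift all genes if many change one way. Detection calls were not used here, and the background settings are unknown.

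A platform annotation gave 12442 probe sets 1 symbol, 327 several and 1197 none, and 44 controls were left out. All 71 Gst and Ugt probe sets matched the RefSeq gene table (Release 6 plus ISO1 MT), used for names, arms and gene order only. Each array was scaled to 1 trimmed mean, values were log2-transformed without a pseudocount, and probe sets at or above the 40th percentile of mean Signal (128.3) were tested. One model of 6 group means was fitted to all 12 arrays with limma 3.58.1 in R 4.3.3 (eBayes with a variance trend, 6 residual and 5.09 prior degrees of freedom), with two-sided tests and Benjamini-Hochberg adjustment, called at 0.05. The fit was tested on simulated data. Members, lists and tests were chosen with earlier results of these data known. Named were called members, up to 5 members per family and direction (called ones included) with the smallest unadjusted p under 0.05 in each comparison, and the largest interaction F. The alternatives were 12 other settings and 12 fits leaving out 1 array each.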

Additional observations from a re-analysis of the deposited data

How the results depend on the processing

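Of the sex calls, the Gst count of 2 became 1 without a variance trend, with a replicate block, with the BG02257 males averaged as 1 sample, and in two-way analyses of variance of linear or log2 Signal, and ranged from 1 to 3 when 1 array was left out. The Ugt count of 1 became 0 without the trend, with the males averaged and in both analyses of variance, and ranged from 0 to 1 when 1 array was left out. The counts of 0 for line pairs and for the interaction stayed 0 in every alternative run. GstE9 kept its call in every alternative run except both analyses of variance (adjusted p of 0.110 and 0.183). Besides the leave-out fits, GstS1 lost its call without the variance trend, with the replicate block (0.0519) and with the BG02257 males averaged. It was also lost in both analyses of variance, where the 1 Gst gene called was GstT3 and neither GstE9 nor GstS1. Whether the replicate numbers pair the samples is not settled here. Deviations of same-numbered arrays, BG02257 males left out, correlated at −0.24 to 0.27, which cannot exclude a pairing of some groups. Apart from that of GstS1, the replicate block changed no call of a member. The line call of se in BG02257 was lost with it (limma adjusted p = 0.0522). Sex calls over all probe sets went from 238 to 172 with the block. Of the 17 log2 differences of 10 members followed through the alternatives, 0 changed sign. These were picked as called or with the smallest unadjusted p in the same data. A change of sign was therefore unlikely from the start, and nothing is read from its absence. The 8 family medians gave 13 sign changes, all with 1 array left out, and the Gst median of BG02514 minus BG02257 became −0.05 with the limit at the 60th percentile. Over all probe sets the sex calls, 238 in the reported fit, ranged from 99 (no trend) to 246 over the other settings and from 116 to 299 with 1 array left out. The same 2 ranges were 1 to 19 and 4 to 20 for BG02514 against Canton S B (15), 1 to 10 and 2 to 24 for BG02257 against Canton S B (8), 2 to 37 and 2 to 90 for BG02514 against BG02257 (28), and 0 to 0 and 0 to 9 for the interaction (0). With 2 arrays a group, a missed threshold does not show equal levels.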
